A study of Mus musculus with 4 samples.

Results

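The interferon-inducible GTPases examined here are 6 guanylate-binding proteins, Gbp2, Gbp2b, Gbp3, Gbp4, Gbp5 and Gbp7, and 4 immunity-related GTPases, Igtp, Irgm1, Irgm2 and Iigp1. They were chosen by gene symbol as 10 of the 27998 genes counted in every library, and all 10 were found. The cells came from the pleural fluid of C57BL/6 mice with malignant pleural effusion raised by the Lewis lung carcinoma line (LLC). On day 11 the mice received, into the pleural cavity, LNP-cGAMP (1 µg), the anti-PD-L1 antibody 10F.9G2 (30 µg), both agents at those doses, or PBS. LNP-cGAMP is a nanoparticle that carries cGAMP, a cyclic dinucleotide that activates STING, and the antibody shuts off PD-L1, a ligand through which T cells are held back. The cells were taken 48 h later, on day 13, red blood cells were lysed, cells of 3 mice were pooled for each treatment, and each pool was loaded for 4000 cells. Single-cell RNA sequencing gave 1 library for each treatment, so no difference has a replicate check, no test was run, and every interval covers counting error only.

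Both families bind and cleave GTP and are switched on in cells that sense interferon. Interferon-gamma, made by T and NK cells, acts through gamma-activated sites (GAS), and type I interferons, made after STING is activated, act through interferon-stimulated response elements (ISRE). Guanylate-binding proteins coat the membranes around intracellular microbes and help to start inflammasomes, and they are widely read as a sign of interferon-gamma. Among the immunity-related GTPases, Irgm1, Irgm2 and Igtp sit on the cell's own membranes and keep effector GTPases such as Iigp1 in check, while Iigp1 is loaded onto the vacuoles of parasites. Many of these genes also answer type I interferon, so the comparison of gene lists that answer mainly one or the other is given beside them.

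The 5 members Gbp2, Gbp2b, Gbp3, Gbp5 and Gbp7 lie on the plus strand of one cluster on chromosome 3, between 142493978 and 142638008 of GRCm38, a span of 144 kb. Gbp4 lies apart at chr5:105115767-105139586 on the minus strand. Igtp (chr11:58199556-58207591) and Irgm2 (chr11:58199618-58222782) overlap on the plus strand of chromosome 11 in the GENCODE annotation, so reads could not be split between them with certainty, and Irgm1 lies at chr11:48861968-48871683 on the minus strand. RefSeq promoters of GRCm38.p6, from 250 bases before to 50 bases after the start, were matched for 8 members, with 9 entries, since Gbp3 has 2. The stretches around the ISRE core are printed because each of these 8 members had an entry that held it, the second entry of Gbp3 being without, while the members differed in how they stood under the treatments. Capitals mark 1 match of the core in each, searched on both strands as GAAA, any 2 bases and GAAA again, which reads as TTTC, any 2 bases and TTTC where it lies on the opposite strand. Each line is the gene's own strand, 5′ to 3′, in GRCm38.p6.
Gbp2 (chr3:142620584-142620633, plus strand): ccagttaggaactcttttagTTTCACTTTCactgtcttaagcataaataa
Gbp2b (chr3:142594690-142594739, plus strand): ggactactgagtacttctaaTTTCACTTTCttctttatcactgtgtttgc
Gbp3 (chr3:142559979-142560028, plus strand): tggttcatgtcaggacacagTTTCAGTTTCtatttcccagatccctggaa
Gbp5 (chr3:142496749-142496798, plus strand): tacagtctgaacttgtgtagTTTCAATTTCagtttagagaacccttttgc
Gbp7 (chr3:142530263-142530312, plus strand): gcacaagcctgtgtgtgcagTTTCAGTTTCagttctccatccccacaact
Igtp (chr11:58199502-58199551, plus strand): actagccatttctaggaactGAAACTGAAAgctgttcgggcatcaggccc
Irgm2 (chr11:58214893-58214942, plus strand): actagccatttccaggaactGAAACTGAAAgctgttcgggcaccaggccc
Irgm1 (chr11:48871421-48871470, minus strand): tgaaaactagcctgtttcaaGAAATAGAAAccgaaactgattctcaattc
All 5 printed stretches of the chromosome 3 cluster held the core in the TTTC orientation, and the 3 of chromosome 11 held it in the GAAA orientation. The ISRE core was held by 3.44% of all 32851 promoters of the table, and 3.99% of its 27025 genes had a promoter with it. The windows of Igtp and Irgm2 are near copies, and their promoters were 91.1% identical over 271 aligned bases. The GAS core TTCNNNGAA, which reads the same on both strands, was found for 4 of the 8 members, Gbp5, Gbp7, Igtp and Irgm2, and for 9.55% of all genes. The whole promoters of Gbp2b and Irgm1 are printed because these members differed between the libraries over all monocyte/macrophage-like cells. Gbp2b was high in both libraries with anti-PD-L1 and Irgm1 highest with LNP-cGAMP. Among the combination's cells whose sex could be read, however, Gbp2b was high only in those read as female, as given below. Capitals again mark the ISRE core, and overlapping matches run together.
Gbp2b (chr3:142594597-142594896, plus strand): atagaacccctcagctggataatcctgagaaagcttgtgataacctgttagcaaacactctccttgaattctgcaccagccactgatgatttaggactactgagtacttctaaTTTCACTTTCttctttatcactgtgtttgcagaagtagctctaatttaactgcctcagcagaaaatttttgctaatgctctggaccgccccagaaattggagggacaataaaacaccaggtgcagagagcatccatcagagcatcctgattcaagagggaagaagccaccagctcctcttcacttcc
Irgm1 (chr11:48871371-48871670, minus strand): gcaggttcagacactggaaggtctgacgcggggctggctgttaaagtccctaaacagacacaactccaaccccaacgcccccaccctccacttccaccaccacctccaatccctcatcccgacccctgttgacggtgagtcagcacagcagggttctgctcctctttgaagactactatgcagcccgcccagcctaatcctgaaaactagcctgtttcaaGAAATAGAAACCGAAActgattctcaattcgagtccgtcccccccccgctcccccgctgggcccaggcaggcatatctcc
Neither of these promoters held the GAS core, and a match or its absence describes these letters only.

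The libraries held between 68828158 and 88855120 UMIs (unique molecular identifiers, each counting 1 RNA molecule), and 3839 (LNP-cGAMP), 3392 (anti-PD-L1), 3547 (combination) and 2841 (PBS) cells passed the filters. Cells were clustered without interferon-response genes, the members among them, and clusters were named from marker genes, so names are given as "-like". The monocyte/macrophage-like class was the largest, with 1919, 2036, 2322 and 1619 cells in that order. All 12 of its markers, C1qa and Csf1r among them, were detected in every library and summed to 12234 to 13770 CPM. The libraries did not hold the same kinds of monocyte/macrophage-like cell. In LNP-cGAMP most lay in clusters 5 (led by Saa3 and Mrap), 20 (Ccl12 and Ccl7) and 17 (Ccl8 and Fabp5). In anti-PD-L1 and PBS most lay in clusters 6 (Cd163 and Ccl24), 7 (Lyve1 and Marco) and 4 (Vcan and Ccr2), and the combination held cells of all of these. Sex read from Xist and Y-linked genes differed too: 0% of the called cells were female in LNP-cGAMP, 67.8% in anti-PD-L1, 78.4% in the combination and 0.0532% in PBS. The labels do not give the sex of the mice. Among the 13619 cells, 37 barcodes occurred in 2 or more libraries, and any 2 libraries shared 16 to 21 of them. From the list of possible barcodes assumed here, 1.42 to 2.00 would be shared at random. The length of that list depends on the kit version, which was not settled, so no excess can be read for a single pair of libraries. All pairs drew on the same 37 barcodes, so some of these occurred in more than 2 libraries. The cause was not tested.

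The members' levels are given as CPM, the share of a gene among all UMIs of a class in a library on the usual scale of such counts. Reads mark the 3′ end of a transcript, so levels are compared between libraries and classes within a gene, not between genes. The members' summed level, which is weighted towards Gbp2, was highest in neutrophil-like cells. It stood there at 7755 CPM in LNP-cGAMP, 9839 in anti-PD-L1, 6896 in the combination and 7774 in PBS. Such levels are shares of UMIs, not amounts per cell. In PBS the median neutrophil-like cell held 2092 UMIs, and the median monocyte/macrophage-like cell 34944. In monocyte/macrophage-like cells LNP-cGAMP had 3119 CPM (95% Poisson interval 3102 to 3136), anti-PD-L1 4097 CPM (4082 to 4112), the combination 2828 CPM (2815 to 2841) and PBS 2855 CPM (2842 to 2869). T cell-like cells stood at 895, 1335, 781 and 1273 CPM in that order, and NK cell-like cells at 564, 1358, 499 and 490 CPM. Anti-PD-L1 had the highest sum in each of these 4 classes, and the other libraries changed places between classes. After each cell was thinned to 1000 UMIs, at least 1 UMI of a member was found in 91.4% of monocyte/macrophage-like cells under LNP-cGAMP (exact 95% interval 90.1 to 92.6) and 96.6% under anti-PD-L1 (95.7 to 97.4). Under the combination 85.7% of cells held one (84.3 to 87.1), against 87.7% under PBS (86.0 to 89.3). Barcodes of 10 to 100 UMIs, which hold mostly free RNA, carried summed levels of 2828, 4372, 2670 and 3456 CPM in the same order. The share of a member's level in monocyte/macrophage-like cells that free RNA could supply, estimated from markers of other cell types, was at most 11.5%. For Gbp2 that share was larger in T cell-like and NK cell-like cells, as given below. The order of the libraries by summed level in those classes is to be read with this limit.

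**Figure D1:**
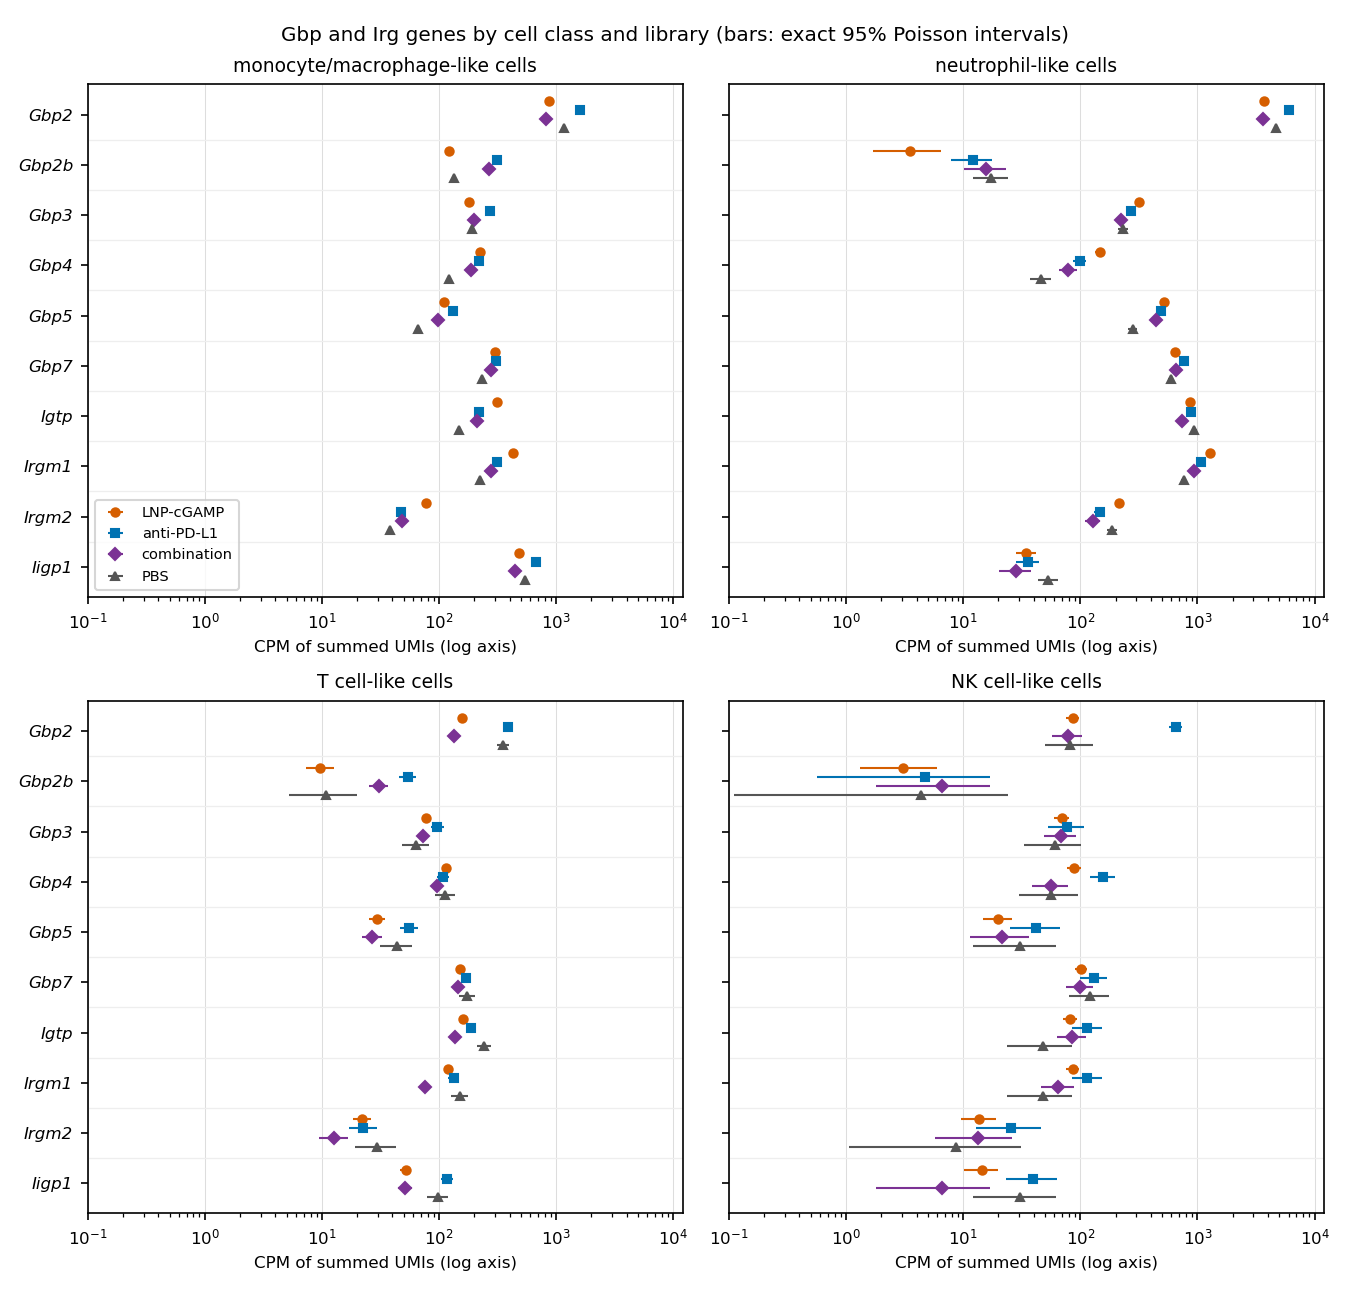
Level of each of the 10 members in 4 cell classes, 1 panel per class, in CPM on a log axis, with 1 point per library and 95% Poisson intervals of counting error. Gbp2b was high in the anti-PD-L1 and combination libraries of monocyte/macrophage-like cells (312 and 269 CPM), while Igtp and Irgm1 were highest there with LNP-cGAMP (315 and 431 CPM).

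Under LNP-cGAMP, monocyte/macrophage-like cells held more Igtp, Irgm1, Irgm2, Gbp4 and Gbp5 than under PBS, by 1.65- to 2.13-fold, and about as much or less Gbp2, Gbp2b, Gbp3 and Iigp1. A member was counted as higher or lower at 1.5-fold on log2(CPM + 10), a scale that understates the ratio of low genes. By that rule 5 of 10 members were higher and 0 lower, where 12.6% of the 3298 measured genes were higher and 8.16% lower. Among the regulatory GTPases, Igtp was at 315 CPM in LNP-cGAMP and 148 CPM in PBS (2.13-fold, 95% interval 2.07 to 2.19). Irgm1, which protects the cell's own membranes and supports autophagy, was at 431 CPM in LNP-cGAMP and 222 CPM in PBS (1.94-fold, 1.90 to 1.99). Irgm2 was at 77.4 CPM and 37.9 CPM in the same order (2.04-fold, 1.93 to 2.16). All 3 regulators thus stood near 2-fold over the whole class. The effector Iigp1 was at 484 CPM in LNP-cGAMP and 540 CPM in PBS (0.897 times, 0.881 to 0.913). These libraries held mostly different clusters of the class. In cluster 4, which both held, Iigp1 instead had the highest log2 ratio of the members (0.78), as given below. Of the guanylate-binding proteins, Gbp4 was at 223 CPM in LNP-cGAMP and 121 CPM in PBS (1.84-fold, 1.79 to 1.90). Gbp5, which promotes assembly of the NLRP3 inflammasome, was at 110 CPM and 66.4 CPM (1.65-fold, 1.58 to 1.73). Gbp7 was at 303 CPM and 231 CPM (1.31-fold, 1.28 to 1.35) and Gbp3 at 180 CPM and 190 CPM (0.944 times, 0.917 to 0.973). These last members did not pass 1.5-fold. Gbp2, which is recruited to the vacuoles of Toxoplasma, was at 873 CPM in LNP-cGAMP and 1165 CPM in PBS (0.750 times, 0.740 to 0.759), and Gbp2b at 123 CPM and 134 CPM (0.918 times, 0.885 to 0.951). The chromosome 3 cluster therefore held members on both sides of 1.

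In the same comparison 33 of 35 measured genes of the type I interferon list were higher and 0 lower, with a median log2 ratio of 1.17, against 0.51 for the members and 0.08 for all measured genes. Of the 28 measured genes of the interferon-gamma list, 11 were higher and 5 lower, with a median of 0.48. Those on the higher side included Cxcl10, a chemokine for T cells, at 256 CPM in LNP-cGAMP and 62.2 CPM in PBS. Those on the lower side included the MHC class II genes H2-Aa, at 180 CPM in LNP-cGAMP and 479 CPM in PBS, and H2-Eb1, at 89.1 CPM and 266 CPM. Irf8, a transcription factor of myeloid cells, was at 372 CPM and 352 CPM, and Cxcl9, a chemokine that depends strongly on interferon-gamma, at 18.7 CPM and 19.3 CPM. The interferon-gamma list thus held genes on both sides of the threshold, whereas no member was on the lower side. Of the 5 measured GTPases of the same families that are no members, 4 were higher and 0 lower (median 0.81). Among them Ifi47 was at 622 CPM in LNP-cGAMP and 350 CPM in PBS, Gbp8 at 67.6 CPM and 26.2 CPM, and F830016B08Rik at 55.4 CPM and 14 CPM. Of the list of proteins that work with the members, 4 of 17 were higher and 0 lower. They included Casp4, the caspase of the non-canonical inflammasome, at 122 CPM in LNP-cGAMP and 44.9 CPM in PBS, and Casp1 at 367 CPM and 175 CPM. In the signalling list 6 of 11 were higher and 0 lower, among them Stat2 at 83.2 CPM and 34.9 CPM and Ifngr2, a chain of the interferon-gamma receptor, at 109 CPM and 64.3 CPM. Ifngr1, its other chain, was at 187 CPM and 165 CPM. Of the 10 housekeeping genes 2 were higher and 1 lower, with a median of −0.25.

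With anti-PD-L1 every member stood higher in monocyte/macrophage-like cells than with PBS, by 1.26- to 2.34-fold, and 3 of 10 passed 1.5-fold with 0 lower, where 1.64% of measured genes were higher and 0.879% lower. Gbp2b, the mouse counterpart of human GBP1, was at 312 CPM in anti-PD-L1 and 134 CPM in PBS (2.34-fold, 2.28 to 2.40). Gbp5 was at 132 CPM and 66.4 CPM (1.99-fold, 1.91 to 2.06), and Gbp4 at 217 CPM and 121 CPM (1.80-fold, 1.75 to 1.85). The members that passed were all guanylate-binding proteins. Gbp2 was at 1600 CPM in anti-PD-L1 and 1165 CPM in PBS (1.37-fold, 1.36 to 1.39), Iigp1 at 678 CPM and 540 CPM (1.26-fold, 1.24 to 1.27), and Igtp at 220 CPM and 148 CPM (1.48-fold, 1.45 to 1.52). Irgm1 stood at 314 CPM and 222 CPM, and Irgm2 at 47.6 CPM and 37.9 CPM. The members' median log2 ratio was 0.48, with the lowest at 0.27, against 0.37 for the interferon-gamma list (6 of 28 higher), 0.31 for the type I list (3 of 35 higher) and 0.00 for all measured genes. Neither interferon list held a lower gene at 1.5-fold. H2-Aa was at 660 CPM in anti-PD-L1 and 479 CPM in PBS, and Ciita, which drives the MHC class II genes, at 9.19 CPM and 4.46 CPM. The signalling and partner lists held 0 genes past 1.5-fold in either direction.

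With both agents 2 of 10 members were higher than in PBS and 0 lower, where 4.34% of measured genes were higher and 1.61% lower. Gbp2b was at 269 CPM in the combination and 134 CPM in PBS (2.02-fold, 1.96 to 2.07), and Gbp4 at 187 CPM and 121 CPM (1.55-fold, 1.5 to 1.59). Gbp2 stood at 813 CPM in the combination and 1165 CPM in PBS (0.698 times, 0.690 to 0.706), and Iigp1 at 446 CPM and 540 CPM (0.826 times). The other members lay between Gbp3, at 198 CPM and 190 CPM (1.04-fold), and Gbp5, at 98.5 CPM and 66.4 CPM (1.48-fold). Gbp2b was thus past 1.5-fold in both libraries with anti-PD-L1, and Gbp2 past it in none of the comparisons of this class with PBS. In male-called cells of the combination, however, Gbp2b and Gbp4 lay below PBS, as given below. The type I list had 18 of 35 genes higher in the combination than in PBS and 0 lower (median 0.63). The interferon-gamma list had 4 of 28 higher and 0 lower (median 0.30), beside 0.30 for the members.

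Set against LNP-cGAMP alone, the combination had 1 of 10 members higher and 1 lower, where 4.12% of measured genes were higher and 3.61% lower. Gbp2b was at 269 CPM in the combination and 123 CPM in LNP-cGAMP (2.20-fold, 2.13 to 2.27), and Irgm1 at 279 CPM and 431 CPM (1.55-fold lower, 1.51 to 1.58). In plain CPM Irgm2 was 1.60-fold lower, at 48.3 CPM and 77.4 CPM, although its log2 ratio of −0.58 on the CPM + 10 scale stayed just short of the threshold. Set against anti-PD-L1 alone, 0 members were higher and 2 lower, where 1.82% of measured genes were higher and 0.879% lower. These were Gbp2, at 813 CPM in the combination and 1600 CPM in anti-PD-L1 (1.97-fold lower, 1.95 to 1.99), and Iigp1, at 446 CPM and 678 CPM (1.52-fold lower, 1.5 to 1.54). The comparisons with PBS share the PBS library and those of the combination share its library, so the sets of ratios are not independent of one another.

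Markers of other cell types also differed between the monocyte/macrophage-like classes. The summed level of 10 neutrophil markers was 876 CPM in LNP-cGAMP, 586 in anti-PD-L1, 469 in the combination and 419 in PBS. Red-cell genes came to 3.79, 100, 54.6 and 286 CPM in the same order, T cell markers to 3.35 to 14 CPM, and the median cell held 20175, 32345, 21759.5 and 34944 UMIs. The part of these differences in the members' values was not tested.

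**Figure D2:**
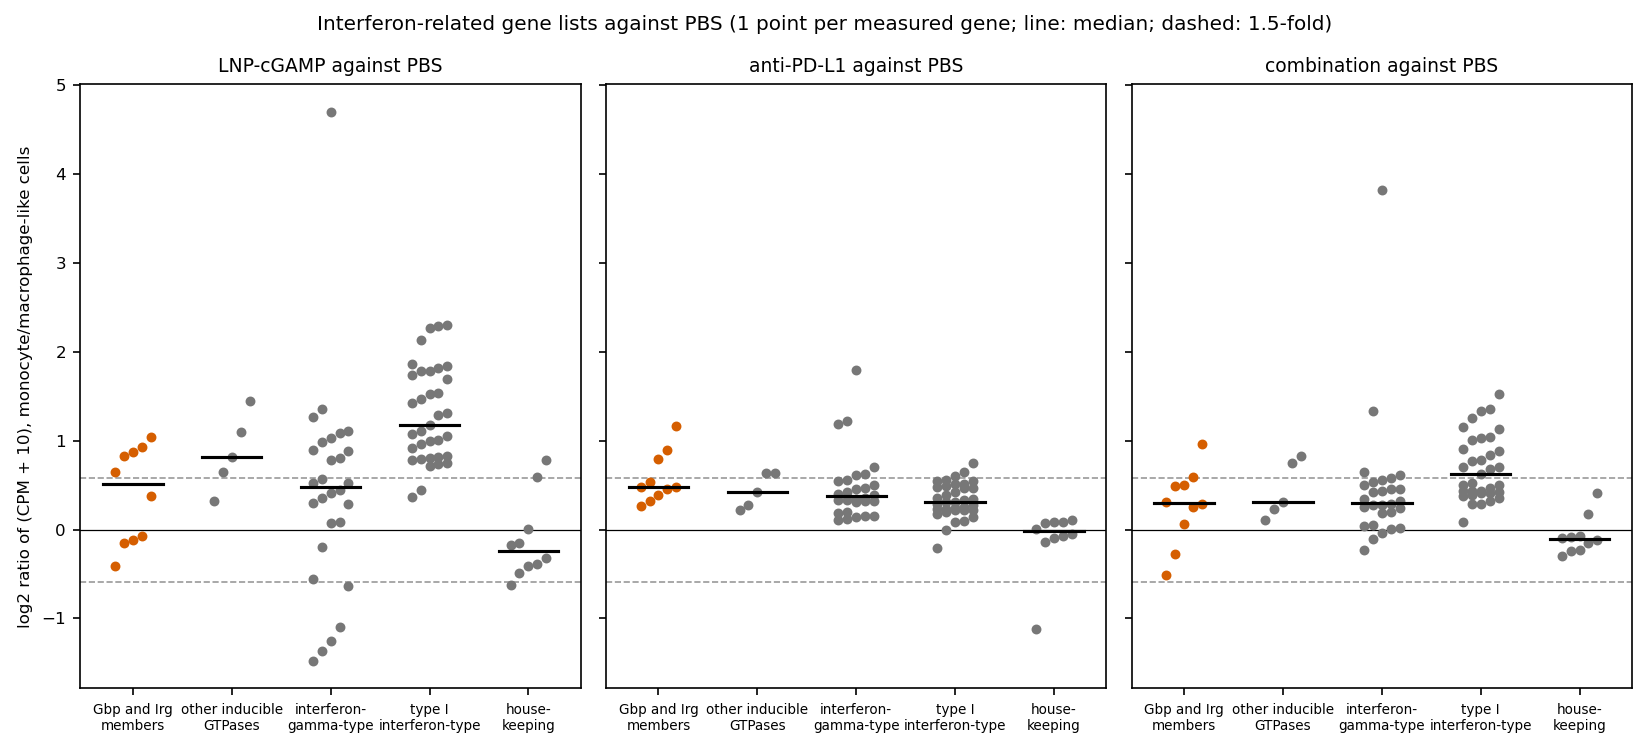
Log2 ratio against PBS, log2((CPM + 10)/(CPM + 10)), of each measured gene of 5 gene lists in monocyte/macrophage-like cells, with a panel each for LNP-cGAMP, anti-PD-L1 and the combination. With LNP-cGAMP the type I list (median 1.17) lay above the members (median 0.51), while with anti-PD-L1 the members (0.48) lay just above the interferon-gamma list (0.37) and the type I list (0.31).

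Single clusters show the members within 1 kind of cell. In cluster 4, led by Vcan and Ccr2 and holding 147 to 592 cells in each library, 6 of 10 members were higher in anti-PD-L1 than in PBS and 0 lower, where 2.24% of measured genes were higher and 1.64% lower. Iigp1 had the highest log2 ratio there (1.28), followed by Gbp2b (1.19), which was at 152 CPM in anti-PD-L1 and 61.0 CPM in PBS. Sex-called cells of this cluster were 366 female and 150 male in anti-PD-L1, and 253 male and 0 female in PBS. The part of sex or mouse in these ratios was not tested. With LNP-cGAMP 1 of 10 members, Iigp1 (log2 ratio 0.78), was higher than in PBS in cluster 4 and 0 lower, where 6.41% of measured genes were higher and 4.2% lower. Gbp4, which passed 1.5-fold over the whole class, had a log2 ratio of −0.09 in this cluster. Igtp and Irgm1 each had 0.58 there, just short of the threshold. In cluster 14, led by Alox15 and Prg4, all 10 members were higher in anti-PD-L1 (100 cells) than in PBS (33 cells), where 4.09% of measured genes were higher, and their sum was 3994 CPM in anti-PD-L1 and 2251 CPM in PBS. Of the sex-called cells in this cluster 84 were female and 9 male in anti-PD-L1, and 31 were male and 0 female in PBS, so treatment and sex cannot be told apart there.

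Gbp2b with the combination stood high in clusters 6 and 7, which it shared with PBS. In cluster 6 Gbp2b was at 343 CPM in both libraries with anti-PD-L1 and 137 CPM in PBS. In cluster 7 Gbp2b was at 321 CPM in anti-PD-L1, 398 CPM in the combination and 116 CPM in PBS. Cluster 14 was shared too, and there the highest log2 ratio of any member for the combination against PBS was 0.22. Gbp2 in cluster 7 had a log2 ratio of −0.69 for the combination against PBS. In cluster 7, led by Lyve1 and Marco, Gbp2 and Gbp2b of the combination therefore lay on opposite sides of PBS. Of the sex-called cells in cluster 6, 229 were female and 1 male in the combination, and 633 were male and 0 female in PBS. In cluster 7, 295 were female and 3 male in the combination, and 413 were male and 0 female in PBS. Treatment and sex cannot be told apart in these comparisons. In the clusters shared with LNP-cGAMP the combination was close to that library in cluster 20, where 0 of 10 members passed 1.5-fold in either direction, 0.394% of measured genes being higher and 0.45% lower. In cluster 17 (279 cells in the combination and 398 in LNP-cGAMP) 1 member, Gbp2b, was higher and 0 lower, where 1.22% of measured genes were higher and 0.787% lower. The sex-called cells of the combination were 441 female and 8 male in cluster 20, and 185 female and 1 male in cluster 17. Those of LNP-cGAMP were all male in both clusters, so treatment and sex cannot be told apart there either. Cluster 5 differed from these. There 9 of 10 members were lower in the combination (293 cells) than in LNP-cGAMP (683 cells) and 0 higher, where 1.44% of measured genes were higher and 5.04% lower, and the summed level was 907 CPM in the combination and 2582 CPM in LNP-cGAMP. Iigp1 was at 85.3 CPM in the combination and 412 CPM in LNP-cGAMP, Gbp2 at 307 CPM and 796 CPM, and Gbp4 at 42.9 CPM and 145 CPM. The member that did not pass was Gbp2b, at 28.4 CPM and 36.5 CPM. A further cluster, led by Hspb1, Mt2, Saa3 and Clec10a and left unnamed because its leading genes held more markers of another type, behaved likewise. In it 9 of 10 members were lower in the combination (217 cells) than in LNP-cGAMP (376 cells) and 0 higher, where 1.47% of measured genes were higher and 3.73% lower, with a sum of 891 CPM in the combination and 1874 CPM in LNP-cGAMP. Gbp2b again had a ratio near 1 there (log2 ratio −0.04).

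An unnamed cluster with high MHC class II genes, of 51 cells in LNP-cGAMP, 103 in anti-PD-L1, 70 in the combination and 105 in PBS, separated both treatments by Gbp2b. Its log2 ratio against PBS was −1.09 with LNP-cGAMP and 1.09 with anti-PD-L1, whereas that of Iigp1 was 1.21 and 1.18. In this cluster 5 members were higher and 1 lower with LNP-cGAMP than with PBS, where 11.4% of measured genes were higher and 7.98% lower. With anti-PD-L1 6 were higher and 0 lower, where 1.58% were higher and 1.03% lower.

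**Figure D3:**
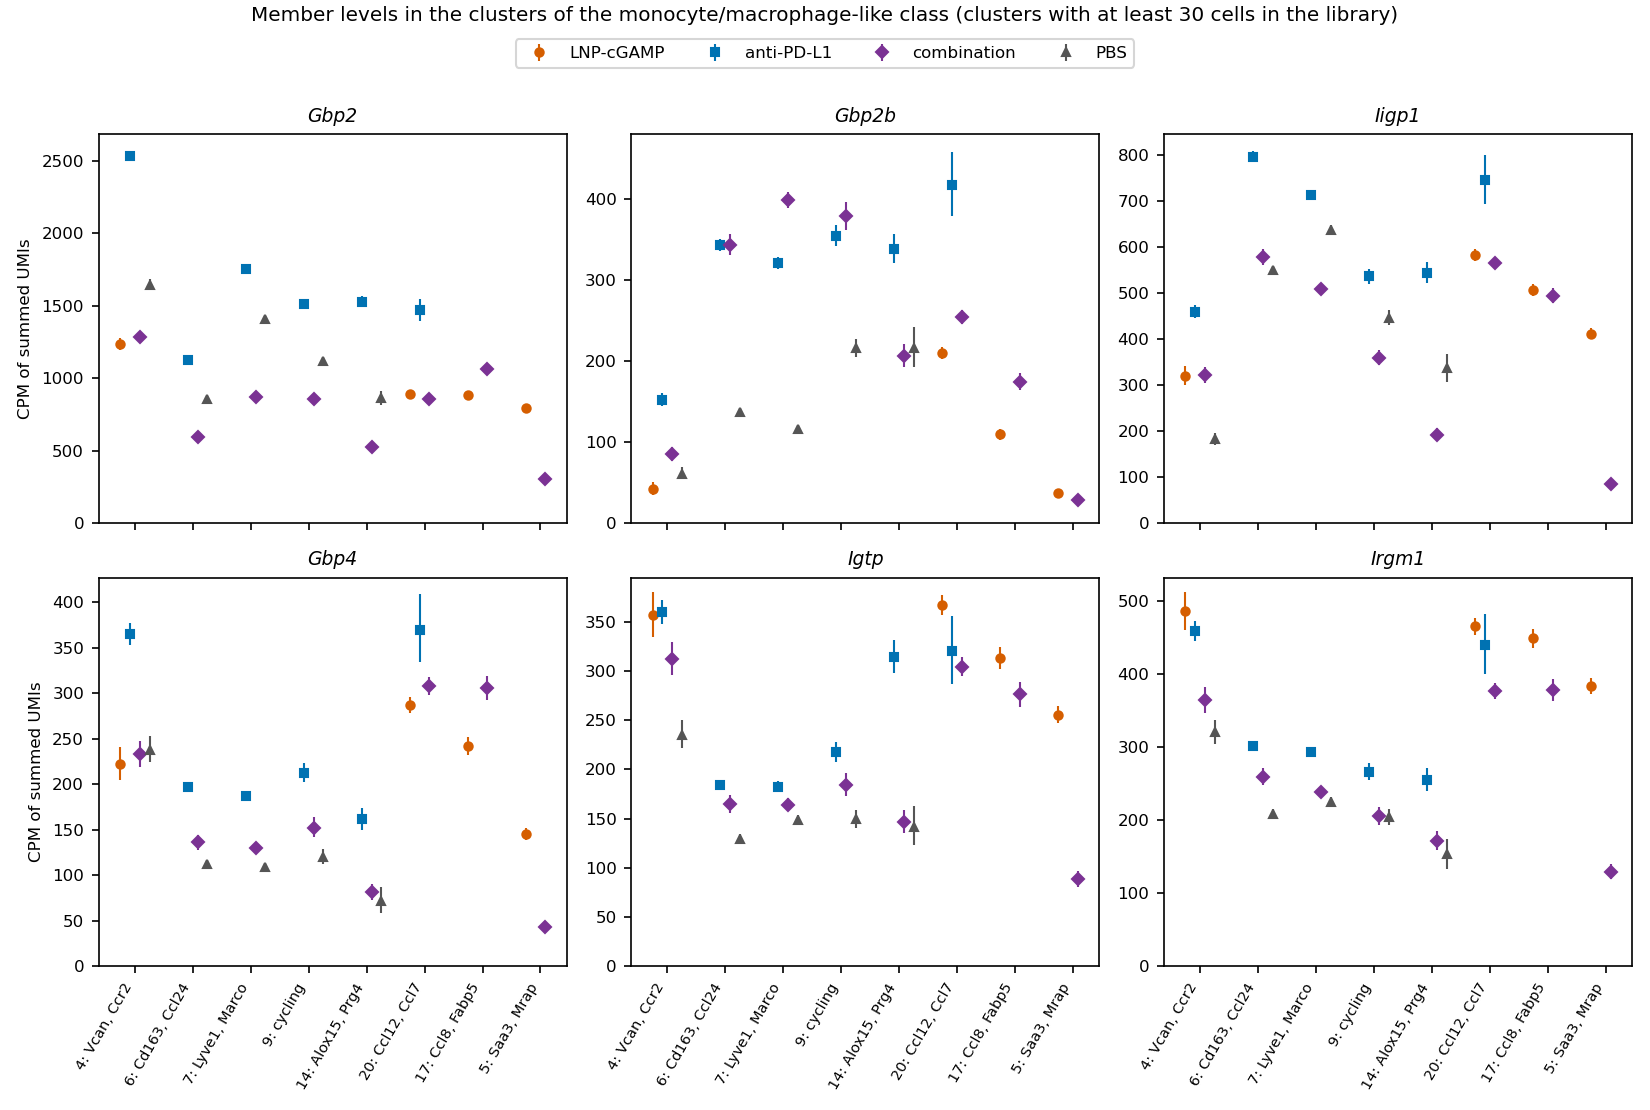
CPM of 6 members in the 8 monocyte/macrophage-like clusters, 1 panel per member, with 1 point for each library that held at least 30 cells of the cluster and 95% Poisson intervals of counting error. In cluster 5 the combination lay below LNP-cGAMP for Gbp2 (307 and 796 CPM) and Iigp1 (85.3 and 412 CPM), and in clusters 6 and 7 Gbp2b was higher in anti-PD-L1 and the combination than in PBS.

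The cells of the combination fell into 2 populations when divided by sex call, and the members were at much lower levels in the male-called one. Male-called and female-called cells of a pool come from different mice, so sex and mouse cannot be told apart. In the monocyte/macrophage-like cells of the combination, 303 male-called and 1486 female-called, all 10 members were at least 1.5-fold lower in male-called cells, 9 of them passing the filter on low genes, where 6.39% of measured genes were higher and 8.7% lower. Gbp2b was at 39.4 CPM in male-called and 311 CPM in female-called cells (7.90-fold lower, 6.96 to 9.00). Iigp1 was at 96.4 CPM and 493 CPM (5.11-fold lower, 4.71 to 5.56), Gbp4 at 40.3 CPM and 192 CPM (4.77-fold lower, 4.21 to 5.43), and Gbp2 at 294 CPM and 875 CPM (2.98-fold lower, 2.84 to 3.12). The smallest difference was that of Irgm2, at 25.9 CPM in male-called and 48.5 CPM in female-called cells. Both families were thus low together, with a summed level of 899 CPM in male-called and 3050 CPM in female-called cells and a median log2 ratio of −1.54, against −0.06 for all measured genes.

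Other interferon genes were low in the same cells, but not all. The interferon-gamma list had 20 of 27 measured genes lower in male-called cells and 1 higher (median −1.10), and the type I list 19 of 30 lower and 0 higher (median −0.74). Isg15 was at 129 CPM in male-called and 410 CPM in female-called cells, and H2-Aa at 179 CPM and 524 CPM. Irf7, which amplifies type I interferon, was at 556 CPM and 594 CPM. Of the 10 housekeeping genes 2 were lower, Actb being at 7306 CPM in male-called and 11212 CPM in female-called cells. The populations also lay in different clusters: 224 of the 303 male-called cells were in cluster 5, where 10 of the 1486 female-called cells were. The acute-phase gene Saa3 was at 20020 CPM in male-called and 1510 CPM in female-called cells, and the median cell held 18265 and 24206.5 UMIs. Within cluster 14, the one with enough cells of both calls, all 10 members were again lower in male-called (61) than in female-called cells (31), with a median log2 ratio of −1.67, where 9.52% of measured genes were lower and 8.51% higher. In that cluster Saa3 was at 29313 CPM in male-called and 6213 CPM in female-called cells.

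The anti-PD-L1 pool was also mixed. In its monocyte/macrophage-like cells, 599 male-called and 1252 female-called, 0 of 10 members passed 1.5-fold in either direction, where 0.601% of measured genes were higher and 1.53% lower. The summed level was 4369 CPM in male-called and 3954 CPM in female-called cells, and Gbp2 was at 1901 CPM and 1442 CPM. Within cluster 4, however, 2 members were lower in male-called (150) than in female-called cells (366) and 0 higher, where 0.825% of measured genes were higher and 1.55% lower. These were Gbp2b, at 99.3 CPM and 171 CPM (1.73-fold lower, 1.49 to 2.01), and Iigp1, at 336 CPM and 518 CPM (1.54-fold lower, 1.42 to 1.67). Among male-called cells alone the summed level was therefore 3105 CPM in LNP-cGAMP, 4369 in anti-PD-L1, 899 in the combination and 2866 in PBS. Among them 9 of 10 members were lower in the combination than in PBS and 0 higher, where 8.37% of measured genes were higher and 9.55% lower. They included Gbp2b (log2 ratio −1.58) and Gbp4 (−1.38), the members that were higher in the combination over cells of both calls. All 10 were lower than in LNP-cGAMP (7.2% of measured genes higher and 11.8% lower) and all 10 lower than in anti-PD-L1 (7.99% higher and 10.2% lower). For LNP-cGAMP against PBS, which were male in nearly all called cells, the male-called cells gave the same count of 5 higher members, where 12.5% of measured genes were higher and 8.08% lower.

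**Figure D4:**
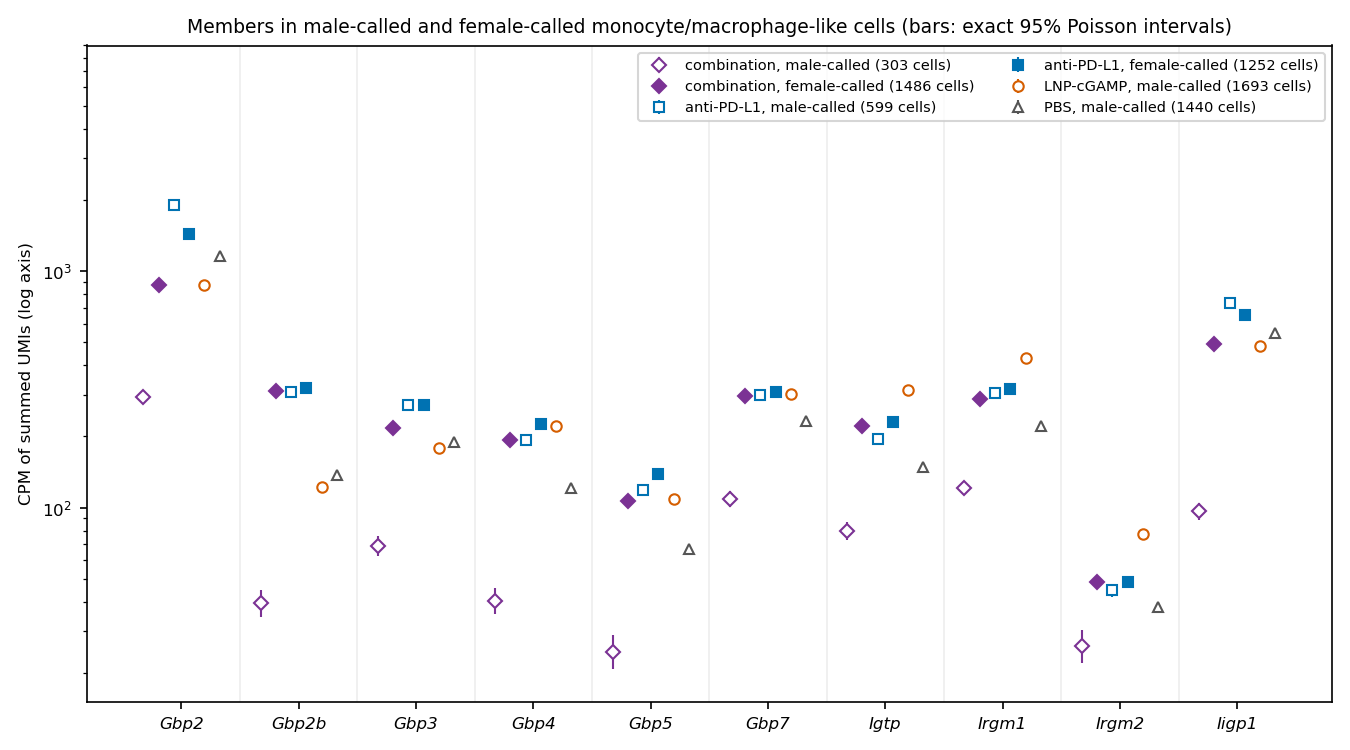
CPM of the 10 members, on a log axis, in male-called and female-called monocyte/macrophage-like cells of each library, with 95% Poisson intervals of counting error. The male-called cells of the combination (303 cells) lay below all other populations for every member, with Gbp2b at 39.4 CPM, whereas male-called and female-called cells of anti-PD-L1 lay close together.

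Ifng, the interferon-gamma gene, was found almost wholly in T and NK cell-like cells, with 590 UMIs over all cells in LNP-cGAMP, 145 in anti-PD-L1, 813 in the combination and 61 in PBS. Among T cell-like cells LNP-cGAMP had 91.0 CPM of Ifng (83.2 to 99.2), anti-PD-L1 54.0 CPM (45.2 to 63.9), the combination 201 CPM (187 to 216) and PBS 48.9 CPM (35.7 to 65.4). In NK cell-like cells, of which 3 libraries held only 33 to 35, Ifng was at 22.0 CPM (16.7 to 28.5) in LNP-cGAMP, 16.4 CPM in anti-PD-L1, 13.2 CPM (5.72 to 26.1) in the combination and 65.1 CPM (36.4 to 107) in PBS. The library with the highest Ifng, the combination, was not the one with the highest members in monocyte/macrophage-like cells. Within the combination Ifng differed with the sex call: male-called cells of all classes held 11 UMIs (1.03 CPM) and female-called cells 754 UMIs (15.0 CPM). T and NK cell-like cells were 11 of the 495 male-called cells (2.22%) and 7.08% of the female-called ones. In anti-PD-L1, where the members did not differ at 1.5-fold, male-called cells held 39 UMIs of Ifng (1.71 CPM) and female-called cells 59 UMIs (1.16 CPM). Whether the members' levels depend on these amounts was not tested. Ifnb1 was all but undetected, with 1 UMI in LNP-cGAMP, 0 in anti-PD-L1, 1 in the combination and 0 in PBS.

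**Figure D5:**
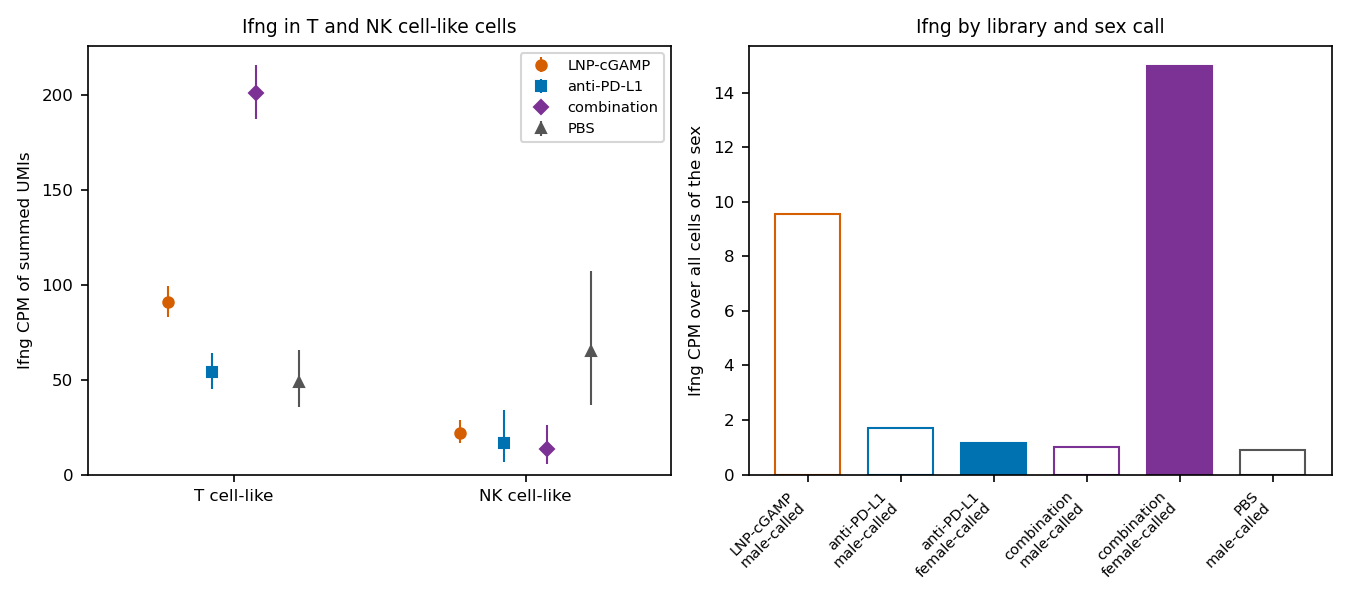
Left, Ifng CPM in T cell-like and NK cell-like cells by library, with 95% Poisson intervals of counting error. Right, Ifng CPM over all cells by library and sex call, without intervals. T cell-like cells of the combination had the highest level (201 CPM), and in the combination male-called cells had 1.03 CPM against 15.0 CPM in female-called cells.

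Neutrophil-like cells (1081 in LNP-cGAMP, 918 in anti-PD-L1, 588 in the combination and 870 in PBS) held Gbp4 and Gbp5 at higher levels under every treatment than in PBS. Gbp4 was at 148 CPM in LNP-cGAMP, 98.4 in anti-PD-L1, 79.2 in the combination and 46.0 in PBS, and its fold over PBS was 3.23 (2.56 to 4.1) for LNP-cGAMP, 2.14 (1.67 to 2.76) for anti-PD-L1 and 1.72 (1.3 to 2.28) for the combination. Gbp5 was at 516 CPM in LNP-cGAMP, 492 in anti-PD-L1, 443 in the combination and 280 in PBS, with a fold over PBS of 1.84 (1.67 to 2.04), 1.76 (1.59 to 1.95) or 1.59 (1.41 to 1.78). Both therefore had PBS as their lowest library. Irgm1 was at 1269 CPM in LNP-cGAMP, 1075 in anti-PD-L1, 941 in the combination and 767 in PBS, and passed 1.5-fold with LNP-cGAMP alone (1.65-fold, 1.56 to 1.76). Gbp2 was at 3735, 6071, 3644 and 4662 CPM in that order, so that anti-PD-L1 was again its highest library. The counts against PBS were 3 higher and 1 lower for LNP-cGAMP, where 6.51% of the 2658 measured genes were higher and 13.2% lower. They were 2 and 0 for anti-PD-L1 (3.01% and 10.2%), and 2 and 1 for the combination (4.78% and 17%). The combination had 1 member higher and 2 lower than LNP-cGAMP alone (1.81% and 5% of measured genes), and 0 higher and 1 lower, Gbp2, than anti-PD-L1 alone (3.76% and 3.27%). Of the 10 members 9 passed the filter on low genes in this class, Gbp2b being the exception. The members on the lower side against PBS were Gbp2b and Iigp1, whose levels of at most 17.4 and 53.2 CPM could be supplied wholly or mostly by free RNA (72.1% to 143% of them). All measured genes had a median log2 ratio of −0.15, −0.15 and −0.25 against PBS in this class, so ratios are to be read relative to that shift.

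A finer clustering left 4 clusters of neutrophil type unnamed, since they had few UMIs and no marker among their leading genes. The largest of them, led by Ifit1bl1, Ccrl2 and Ly6i, held 363 cells in LNP-cGAMP, 33 in anti-PD-L1, 96 in the combination and 13 in PBS, and the next 286, 5, 30 and 3. Without these 4 clusters the log2 ratio of LNP-cGAMP against PBS was −0.0071 for Gbp4 and −0.066 for Irgm1.

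The neutrophil-like classes also differed in make-up: cluster 3, led by Ngp, Camp and Ltf, held 466 cells in LNP-cGAMP, 16 in anti-PD-L1, 63 in the combination and 7 in PBS. In cluster 0, led by Mmp9 and shared by all libraries, 5 members were higher in LNP-cGAMP than in PBS and 1 lower, where 8.5% of measured genes were higher and 17.1% lower. Gbp4 was at 261 CPM in LNP-cGAMP and 54.9 CPM in PBS there, Gbp5 at 837 CPM and 303 CPM, and Irgm1 at 1698 CPM and 809 CPM. Within this cluster Gbp2 was at 6340 CPM in LNP-cGAMP and 5413 CPM in PBS, whereas over the whole class it was lower in LNP-cGAMP. In cluster 2, led by G0s2 and Il1b, 5 members were higher and 1 lower in LNP-cGAMP (10.9% and 17.9% of measured genes), and likewise in anti-PD-L1 (6.25% and 12.7%). Gbp2 in cluster 2 was at 3309 CPM in LNP-cGAMP, 3778 in anti-PD-L1, 2521 in the combination and 1807 in PBS.

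In T cell-like cells (241, 149, 163 and 80 cells in the order LNP-cGAMP, anti-PD-L1, combination and PBS) more members were lower than higher in both libraries with LNP-cGAMP than in PBS, though most did not pass 1.5-fold with LNP-cGAMP alone. Against PBS, 0 members were higher and 2 lower with LNP-cGAMP, where 7.45% of the 3344 measured genes were higher and 5.44% lower. With anti-PD-L1 1 was higher and 0 lower (3.74% and 1.73%), and with the combination 1 was higher and 5 lower (6.97% and 7.39%). The combination had 1 higher and 1 lower than LNP-cGAMP alone (0.897% and 1.61%), and 0 higher and 5 lower than anti-PD-L1 alone (2.36% and 5.14%), and 9 of the 10 members passed the filter on low genes. Gbp2 was at 158 CPM in LNP-cGAMP, 389 in anti-PD-L1, 133 in the combination and 352 in PBS. Irgm1, which T cells need to survive when they divide under interferon-gamma, was at 120, 134, 75.3 and 150 CPM in the same order, and Igtp at 159, 188, 138 and 241 CPM. The combination was thus the lowest library for these members. It held the most Ifng in this class, with all 788 UMIs in cluster 12 and 0 in cluster 16, both described below. Whether the members' levels are linked to Ifng was not tested. With a stricter UMI minimum, which left 23 T cell-like cells in PBS, the log2 ratio of LNP-cGAMP against PBS was 0.14 for Gbp2 and 0.38 for Iigp1, the members counted as lower. Gbp2b, the member on the higher side, was at 54.0 CPM in anti-PD-L1, 30.6 in the combination and 10.9 in PBS, but free RNA could supply 90.5% or more of each of these levels. For Gbp2 that share was 56.9% in LNP-cGAMP, 83.1% in anti-PD-L1, 72.7% in the combination and 30.3% in PBS, and monocyte/macrophage markers summed to 1065, 1860, 1317 and 882 CPM in the class. The make-up differed as well, since cluster 12, led by Gzmb, Cd8a and Pdcd1, held 158, 53, 112 and 17 of the cells. In cluster 16, led by Bcl2, Il7r and Tcf7, 7 of 10 members were lower in the combination than in PBS and 0 higher, where 6.51% of measured genes were higher and 15% lower, and their sum was 1392 CPM in the combination and 2409 CPM in PBS.

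NK cell-like cells were few (102, 35, 35 and 33 in that order). Gbp2 there was at 85.8 CPM in LNP-cGAMP, 651 in anti-PD-L1, 77.8 in the combination and 82.4 in PBS, but free RNA could supply 118% of the level in PBS and 31.5% of that in anti-PD-L1, so no fold is given. Neutrophil markers summed to 225, 1459, 99.4 and 147 CPM in the same cells, and their part in that difference was not tested. Against PBS 5 of 10 members were higher with anti-PD-L1 and 0 lower, where 14.7% of the 3549 measured genes were higher and 13.3% lower, and 6 members passed the filter on low genes.

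Tumour cell-like cells were too few to compare except between anti-PD-L1 (34 cells) and PBS (39 cells). In these cells 9 of 10 members were higher in anti-PD-L1 and 0 lower, 7 of the 10 passing the filter on low genes, where 4.24% of measured genes were higher and 5.44% lower, with a median log2 ratio of 1.31. Gbp2 was at 557 CPM in anti-PD-L1 and 106 CPM in PBS (5.27-fold, 4.61 to 6.03), and Iigp1 at 424 CPM and 134 CPM (3.16-fold). Irgm1 was at 233 CPM and 88.0 CPM, Igtp at 223 CPM and 105 CPM, and Gbp3 at 90.8 CPM and 21 CPM. The members' summed level was 1757 CPM (1696 to 1820) in anti-PD-L1 and 539 CPM (512 to 567) in PBS. Free RNA, estimated from macrophage C1q genes, could supply 24.7% of that sum in anti-PD-L1 and 17.7% in PBS, and 146% and 134% of Gbp2b in the same order. Monocyte/macrophage markers summed to 896 CPM in anti-PD-L1 and 394 CPM in PBS, and the median cell held 44349 and 70197 UMIs. Their part in the members' difference was not tested.

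The genes whose levels went most like the mean of the members over the 16 points of class and library (4 classes in 4 libraries) included Spi1, Slc15a3, Ifitm3 and Alox5ap, with Pearson r between 0.982 and 0.987 among 4912 genes. These points share libraries, depth and the large difference between myeloid and lymphoid classes, so the values are a description. Of the members themselves Gbp3 was closest to the mean (r = 0.959), followed by Gbp2 (0.942) and Irgm1 (0.929). Iigp1 (0.513), Gbp2b (0.488) and Gbp4 (0.416) stood apart, each with a pattern of its own over classes: Iigp1 and Gbp2b were low in neutrophil-like cells, and Gbp4 was held by lymphoid and myeloid cells alike.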

How the data were processed

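The authors deposited raw UMI counts, a matrix of genes by barcodes for each library, not normalized and with near-empty droplets included. Per the file headers these came from Cell Ranger 3.0.2, and the build was mm10 per the submitters' processing notes. The labels and the series design name different kit versions, which was not settled here. All 4 matrices were mapped to treatments by their labels, and 0 columns of samples were left unused.

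Barcodes were kept above the lowest point of the UMI density between 300 and 5000 UMIs (895 to 1009 UMIs by library), with at least 200 genes and at most 10% of UMIs from mitochondrial genes. The median kept cell held 16423 to 18607 UMIs. Cells were clustered with scanpy 1.11.5 (2000 variable genes without interferon, MHC and sex-linked genes, 30 components, 15 neighbours, Leiden resolution 1 by igraph 0.11.9) and named from marker genes. Doublets were not called. Python 3.11.15, numpy 2.4.6, scipy 1.17.1, pandas 2.3.3 and matplotlib 3.10.9 were used.

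Counts were summed per class and library, with at least 30 cells, and divided by the class total to give CPM. Intervals are exact 95% Poisson intervals, ratios have the exact conditional binomial interval, and shares of cells the exact Clopper-Pearson one; all cover counting error only. A gene counted as measured in a class when its UMIs over all libraries reached 20 and its level 50 CPM in 1 or more of them. Between male-called and female-called cells of a library the same limits were applied to the populations compared. A pseudocount of 10 CPM was used. In monocyte/macrophage-like cells all 10 members were measured in each comparison against PBS. A near-empty barcode had 10 to 100 UMIs, and a count of 0 is limited by 3 counts. Steps were tested on simulated data. With 1 library per treatment no test was possible, and the 5 comparisons give values only.

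The members, gene lists and alternatives were chosen with earlier results of these data known. Named genes are the members, from each other list the 3 measured genes with the largest log2 ratio of LNP-cGAMP against PBS in monocyte/macrophage-like cells, and a fixed set of interferon genes, some of which are not reported here; Saa3 and the clusters described singly were chosen after their values were seen. Sequences are from RefSeq; none is printed for Gbp4 and Iigp1. The alternatives were another scaling, pseudocount, filter, UMI minimum, mitochondrial limit, clustering resolution or marker gate, equal weight for cells, subtraction of free RNA, a single shared cluster, male-called cells only and, added after seeing the data, female-called cells only and the cluster led by Hspb1.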

Additional observations from a re-analysis of the deposited data

Results flagged for a closer look

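In monocyte/macrophage-like cells the log2 ratios of Gbp2 and Iigp1 between male-called and female-called cells differed in sign between the mixed pools. The log2 ratio of male-called over female-called cells for Gbp2 was 0.40 for the anti-PD-L1 pool and −1.54 for the combination pool. For Iigp1 the ratio was 0.16 in the first of these pools, anti-PD-L1, and −2.24 in the second. In each case the populations of one library lay apart in one direction and those of the other library in the opposite one. The difference between the libraries was not tested, since each is 1 pool.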

How the results depend on the processing

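No paired analysis was possible because each treatment has 1 library, and for the same reason no replicate could be left out. Of 43 values at 1.5-fold or more (members by class and comparison), all kept direction and call with a pseudocount of 1 or no filter on low genes. With median-of-ratios scaling 38 of 43 kept their call, and with a marker gate instead of clusters also 38; with equal weight for each cell it was 36 and with a mitochondrial limit of 5% 39, and no direction turned under these 4 settings. Doublets, the different sexes and make-up of the pools, and free RNA in the small lymphoid classes limit what the values show, and T cell-like values turned most often.

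Directions turned as follows, as log2 ratios. In male-called monocyte/macrophage-like cells, the combination against PBS gave −1.58 for Gbp2b and −1.38 for Gbp4, and against LNP-cGAMP −1.42 for Gbp2b. In cluster 4 alone Gbp4 was −0.094 for LNP-cGAMP and −0.030 for the combination against PBS. At resolution 2, where 4 clusters of neutrophil type stay unnamed, neutrophil-like Gbp4 was −0.0071 and Irgm1 −0.066 for LNP-cGAMP against PBS, and Gbp4 was 0.44 for the combination against LNP-cGAMP. In T cell-like cells, resolution 0.5 gave 0.013 for Iigp1 (combination against PBS). The stricter UMI minimum, which leaves few T cell-like cells in PBS, gave Gbp2 0.14 and Iigp1 0.38 for LNP-cGAMP, and Igtp 0.21 and Iigp1 0.37 for the combination. Subtraction of free RNA gave Gbp2b 0.41 and Iigp1 0.70 for the combination against anti-PD-L1. Male-called cells gave Gbp2b −1.21 for anti-PD-L1 against PBS, and cluster 16 gave Gbp2b −0.21 for the combination against PBS and −1.06 against LNP-cGAMP. Apart from fewer cells or clusters, the cause was not tested.

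Counts of members past 1.5-fold moved as follows; M, N and T stand for the monocyte/macrophage-, neutrophil- and T cell-like classes, and PBS is meant where nothing is named. Resolution 0.5: for the combination against LNP-cGAMP, 3 lower in M and 0 lower in T; for the combination against anti-PD-L1, 1 lower in M; in T, 0 lower with LNP-cGAMP, 4 higher with anti-PD-L1 and 1 lower with the combination. Resolution 2: in N, 0 higher and 4 lower with LNP-cGAMP, 0 higher with the combination and 0 lower for it against LNP-cGAMP; in T, 2 higher with anti-PD-L1 and 3 lower with the combination. Stricter UMI minimum: 2 lower in M for the combination against LNP-cGAMP; in T, 1 higher and 0 lower with LNP-cGAMP, 6 higher with anti-PD-L1, 2 higher and 1 lower with the combination. Free RNA subtracted: in M, the combination had 2 lower against LNP-cGAMP and 1 lower against anti-PD-L1; in N, 0 lower with LNP-cGAMP and with the combination, and the combination had 0 higher against LNP-cGAMP and 2 lower against anti-PD-L1; in T, 0 higher and 4 lower with anti-PD-L1, 0 higher with the combination, which had 0 higher and 3 lower against LNP-cGAMP and 1 higher and 3 lower against anti-PD-L1. Marker gate: in M, 1 higher with the combination and 0 lower for it against LNP-cGAMP; 0 lower in N and 0 higher in T with the combination; 2 lower in T for it against LNP-cGAMP. Equal weight per cell: in M, 5 higher with anti-PD-L1, 1 higher with the combination, 0 lower for it against LNP-cGAMP and 1 lower against anti-PD-L1; in T, 7 lower with LNP-cGAMP, 0 higher and 3 lower with anti-PD-L1, 0 higher and 8 lower with the combination and 0 higher for it against LNP-cGAMP.

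Female-called cells of the mixed pools only: the combination had 0 lower in M and T and 0 higher in N against LNP-cGAMP, 1 lower in M and 3 lower in N against anti-PD-L1, and 0 higher in N against PBS; anti-PD-L1 had 2 higher in T. Male-called cells only: in M, the combination had 0 higher and 9 lower, 0 higher and 10 lower against LNP-cGAMP, and 10 lower against anti-PD-L1; 1 lower in T with LNP-cGAMP; 1 higher in N and 2 lower in T with anti-PD-L1. Median-of-ratios scaling: the combination had 1 higher in M, 0 lower in N, and 0 lower in M and T against LNP-cGAMP. Mitochondrial limit of 5%: 1 higher in M and 3 lower in T with the combination, 2 lower in M for it against LNP-cGAMP, 1 lower in T with LNP-cGAMP and 5 higher in T with anti-PD-L1. Pseudocount of 1: 2 lower in N with LNP-cGAMP, 2 higher in T with anti-PD-L1, and 2 lower in M and T for the combination against LNP-cGAMP. A single shared cluster (4, 0 and 16): in M, 1 higher with LNP-cGAMP, 6 with anti-PD-L1 and 1 with the combination, which had 0 lower against LNP-cGAMP and 4 lower against anti-PD-L1; in N, 5 higher with LNP-cGAMP and 6 lower for the combination against it; in T, 1 higher and 4 lower with LNP-cGAMP, 0 higher with the combination, and 0 higher and 2 lower for it against LNP-cGAMP. With the cluster led by Hspb1 added to M, the combination had 1 higher, and 0 lower against LNP-cGAMP.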
